A study of Rattus norvegicus with 5 samples.

Results

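Globins are the heme-carrying proteins that bind oxygen, and 9 rat genes of this family and of its erythroid partners were followed in parietal cortex after neonatal kaolin injection. They are the alpha-globin genes Hba-a2 and Hba-a3, the beta-globin genes Hbb and Hbb-b1, Alas2, Ahsp, Ngb, Cygb and Mb. All array probes were taken whose name in the files, or the current or older symbol behind it, is one of these 9 symbols, which gave 8 of 41012 probes on the array. Each member except Hba-a2 had a probe named for it, though not always one that lists it alone. Hba-a2 was reached only through the alpha-globin probe named for Hba-a3. The genes had been selected on the kaolin over saline log2 ratios of these same 5 arrays, so the ratios below describe them and do not test them.

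Rats were injected with kaolin, a clay that obstructs the flow of cerebrospinal fluid and causes hydrocephalus, or with saline on postnatal day 1. Total RNA came from parietal cortex on postnatal day 22, which was day 21 after kaolin, in 5 kaolin and 5 saline samples. Each of 5 arrays carried 1 kaolin sample labelled with Cy3 and 1 saline sample labelled with Cy5. No array had the dyes exchanged, and an effect of dye cannot be told apart from one of kaolin. Strain and sex are not given in the sources used here, and the labels do not say whether a sample was a single animal or whether vessels were cleared of blood before the tissue was taken. Of 12 cortical neuron markers and 11 glial markers looked for, 11 and 11 were tested, and each was well above background in at least 1 kaolin and at least 1 saline sample.

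Adult hemoglobin is a tetramer of alpha and beta chains made in red cell precursors, and the youngest circulating red cells still carry globin mRNA. Alas2 catalyses the first step of heme synthesis in the erythroid line, and Ahsp is a chaperone that holds free alpha chains until a beta chain binds them. The other members are globins of non-erythroid cells. Neuroglobin (Ngb) occurs in neurons, cytoglobin (Cygb) in fibroblast-like cells, pericytes and some neurons, and myoglobin (Mb) in striated muscle, where it stores oxygen.

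The alpha and beta genes lie in separate clusters of near-copies, which bears on what a probe can tell apart. The alpha-globin probe lies at chr10:15559132-15559189 (rn4, minus strand) and its entry lists RefSeq transcripts of Hba-a3, Hba-a2 and Hba-a1, so its signal cannot be divided between these genes. The Hbb-b1 probe lies at chr1:161590680-161590739 and its entry lists transcripts of both Hbb-b1 and Hbb. The Hbb probe at chr1:161620134-161620193 lists Hbb alone. Both beta probes are on the minus strand of rn4. Exon and UTR positions on that build were not used here. To show how far the paralogs differ outside the transcript, the 250 bases before the start of each gene are given from RefSeq promoter sequences (GRCr8, minus strand, 5′ to 3′), which cover 7 of the 9 members. Capitals mark matches, on either strand, to the CCAAT box, the TATAAA box, the CACCC box bound by erythroid Krüppel-like factors and the GATA words, which are AGATAA and AGATAG and, with the first base changed, TGATAA and also TGATAG. No matches overlapped.
Hba-a3 (chr10:15816944-15817193): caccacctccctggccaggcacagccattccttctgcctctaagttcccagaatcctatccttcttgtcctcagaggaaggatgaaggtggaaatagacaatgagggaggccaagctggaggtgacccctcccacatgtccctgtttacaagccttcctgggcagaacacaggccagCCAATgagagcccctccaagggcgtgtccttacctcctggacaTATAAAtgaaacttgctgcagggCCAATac
Hba-a2 (chr10:15829139-15829388): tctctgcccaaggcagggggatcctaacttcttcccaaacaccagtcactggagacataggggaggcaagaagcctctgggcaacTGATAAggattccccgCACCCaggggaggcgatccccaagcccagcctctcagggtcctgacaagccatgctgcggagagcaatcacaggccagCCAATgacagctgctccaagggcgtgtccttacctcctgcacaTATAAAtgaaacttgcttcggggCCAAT
Hbb (chr1:167663722-167663971): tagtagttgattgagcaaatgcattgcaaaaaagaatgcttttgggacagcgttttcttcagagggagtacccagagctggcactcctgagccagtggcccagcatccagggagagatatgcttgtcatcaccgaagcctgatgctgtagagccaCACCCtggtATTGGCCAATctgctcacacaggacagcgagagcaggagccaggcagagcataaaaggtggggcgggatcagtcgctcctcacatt
Hbb-b1 (chr1:167643521-167643770): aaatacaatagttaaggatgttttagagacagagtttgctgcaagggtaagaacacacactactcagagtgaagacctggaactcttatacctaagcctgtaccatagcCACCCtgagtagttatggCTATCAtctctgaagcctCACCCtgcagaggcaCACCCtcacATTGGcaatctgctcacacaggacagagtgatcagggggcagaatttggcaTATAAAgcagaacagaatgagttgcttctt
The alpha windows were identical at 65.5% of aligned columns and the beta windows at 60.9%, against 46.8% between Hba-a3 and Hbb. In Hba-a3 and Hba-a2 the TATAAA match began 30 and 28 bases before the start, with a CCAAT match at 73 and 71 bases. A TATAAA match also began 30 bases before the start of Hbb-b1, and the Hbb window held none. The Hbb-b1 window held 3 CACCC matches and the Hbb window 1. GATA words were found in the windows of Hba-a2, Hbb-b1, Alas2 and Ngb and not in those of Hba-a3, Hbb and Mb. Of 33469 rat promoter windows of this length, 49.2% held CACCC, 34.0% CCAAT, 27.0% a GATA word and 12.9% TATAAA. A match is a run of letters and not evidence of binding.

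All values below are log2 ratios of kaolin over saline on an array, unless a signal is named. Alpha globin was lower in kaolin than in its saline partner on 5 of 5 arrays, and beta globin was not. The alpha-globin probe had log2 ratios of -1.98, -1.0, -0.85, -1.18 and -0.59 on replicates 1 to 5. All lay below 0, and replicate 1 was the lowest. Their mean was -1.12 ± 0.53 (SD, n = 5), a 2.18-fold lower signal in kaolin. Of all 29118 tested probes, 53 (0.182%) had a mean as low or lower.

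The spread of the alpha-globin ratios lay mainly in the kaolin samples. Before any correction the mean spot signal of that probe was 352942, 292675, 328575, 311940 and 289452 in the saline samples of replicates 1 to 5. In the kaolin samples it was 54867, 78636, 101883, 89589 and 105504, in the other dye. After normalization the log2 signal was 18.08, 17.80, 17.85, 17.89 and 17.80 in saline and 16.09, 16.80, 17.00, 16.71 and 17.20 in kaolin. The groups did not overlap, but the share of all tested probes for which this holds was not counted, and the groups also differ in dye. The kaolin samples spanned 1.11 log2 units and the saline samples 0.28, where the median span over all tested probes was 0.43 in kaolin and 0.32 in saline. In bulk tissue, fewer cells of a type and less RNA per cell cannot be told apart, so the ratio does not say whether fewer red cells or less globin RNA per red cell was present.

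**Figure D1:**
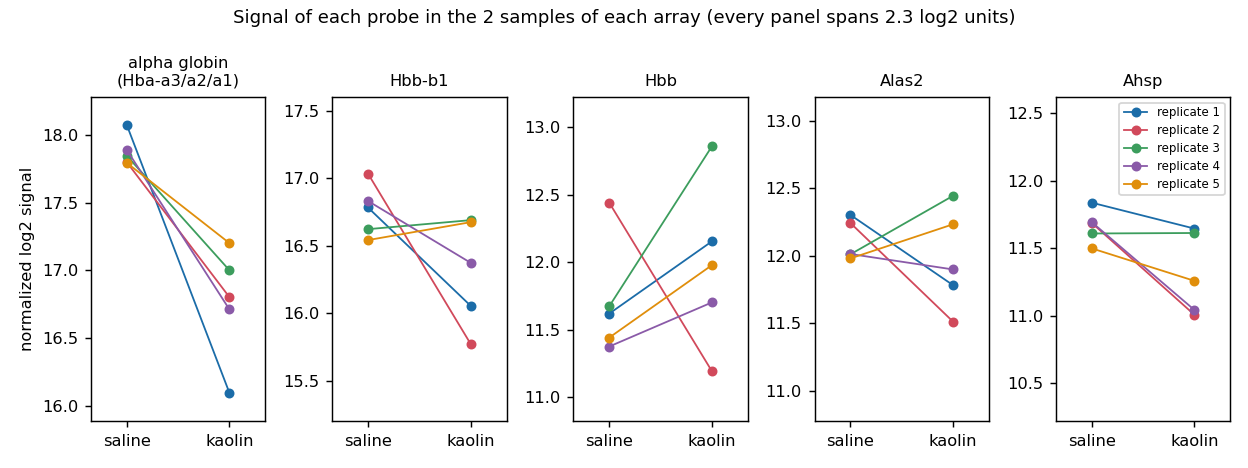
Normalized log2 signal (vertical axis) of 5 probes in the saline and the kaolin sample of each array; a line joins the samples of 1 array and the colour gives the replicate. All 5 alpha-globin lines run down from saline levels of 17.80 to 18.08, while the lines of Hbb-b1, Hbb and Alas2 run in both directions and those of Ahsp run down or, on replicate 3, level.

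Probes of very strong signal as a class stood low in kaolin, and the alpha-globin probe is one of them. Among the 100 other probes nearest to it in mean signal (log2 signal 16.00 to 17.62), 84 had a negative mean. Their median ratios on replicates 1 to 5 were -0.38, -0.25, -0.27, -0.23 and -0.18. Of these 100 probes, 3 had a mean below that of alpha globin. Measured from the median of those neighbours, a reference chosen after seeing the data, alpha globin stood at -1.61, -0.75, -0.58, -0.95 and -0.42, with a mean of -0.86 ± 0.46 (SD, n = 5). How far signal intensity contributes to the full ratio was not tested.

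**Figure D2:**
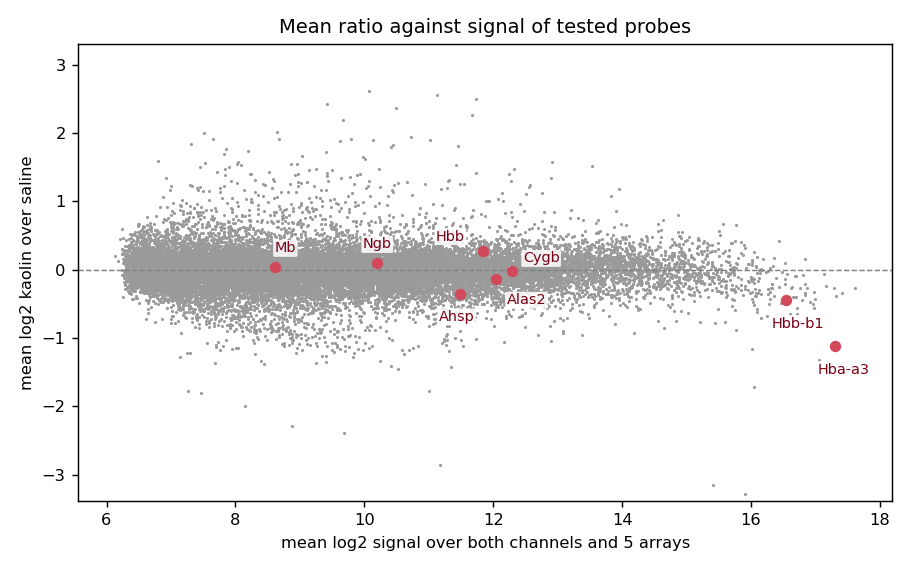
Mean log2 kaolin over saline (vertical axis, n = 5 arrays) against mean log2 signal (horizontal axis) for 29118 tested probes in grey and the 8 globin and erythroid heme probes in red. Hba-a3 is at -1.12 and Hbb-b1 at -0.45, both in the thin bright end where most probes lie below 0.

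The Hbb-b1 probe, which reads adult beta chains, gave -0.73, -1.26, 0.07, -0.46 and 0.13. It was low on replicates 1, 2 and 4 and near 0 on replicates 3 and 5, so its mean of -0.45 ± 0.58 (SD, n = 5) was smaller than the spread between arrays. Without replicate 2 it was -0.25, and with median centring in place of loess -0.87. In signal, kaolin samples ran from 15.77 to 16.69 and saline samples from 16.54 to 17.03, and the groups overlapped. The 100 probes nearest in signal had array medians from -0.40 to -0.19, and measured from these Hbb-b1 stood at -0.18 ± 0.56 (SD, n = 5).

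The Hbb probe gave higher ratios than the Hbb-b1 probe, by a gap that varied between arrays, although both entries list Hbb. Its ratios were 0.54, -1.25, 1.19, 0.33 and 0.54, above 0 on 4 of 5 arrays and far below on replicate 2. Their mean was 0.27 ± 0.91 (SD, n = 5), the widest spread of the 8 probes. Without replicate 2 it was 0.65, and without replicate 3 it was 0.04. On replicate 2 the kaolin sample was the lowest of the 5 kaolin samples (log2 signal 11.19, others 11.70 to 12.86), and the saline sample was the highest of the saline samples (12.44, others 11.38 to 11.67). Within arrays, Hbb exceeded Hbb-b1 by 1.26, 0.01, 1.12, 0.78 and 0.40 log2 units, a mean of 0.72 ± 0.51 (SD, n = 5). The gap was almost nil on replicate 2 alone, where both probes had their lowest ratio (-1.25 for Hbb and -1.26 for Hbb-b1).

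Alpha and beta chains are needed in equal amounts, but their probes did not keep a fixed distance. The alpha ratio minus the Hbb-b1 ratio was -1.26, 0.26, -0.92, -0.72 and -0.73, negative on all arrays but replicate 2, with a mean of -0.67 ± 0.57 (SD, n = 5). Replicate 2, the array with the lowest beta-globin ratios, therefore did not have the lowest alpha ratio; replicate 1 did.

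**Figure D3:**
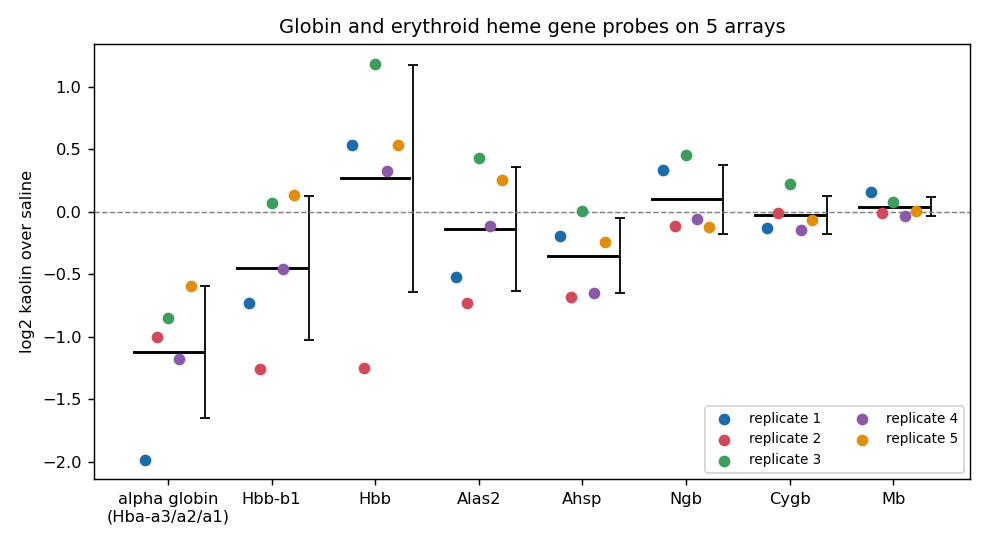
Log2 kaolin over saline (vertical axis) of the 8 probes, with a coloured point for each array, a bar at the mean and an error bar of 1 SD to its right (n = 5). Only alpha globin has all 5 points below 0; Hbb spreads from -1.25 to 1.19, and Mb stays between -0.03 and 0.16.

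Of the erythroid partners, Ahsp was on the low side and Alas2 was mixed. The Ahsp probe, found through the older symbol Eraf (chr1:187561567-187561626, plus strand), gave -0.19, -0.68, 0.0036, -0.65 and -0.24, with a mean of -0.35 ± 0.30 (SD, n = 5). It was below 0 on 4 arrays and level on replicate 3. Its log2 signal ran from 11.01 to 11.64 in kaolin and from 11.50 to 11.84 in saline, so the groups overlapped. Alas2 (chrX:39810353-39810412, plus strand) gave -0.52, -0.73, 0.43, -0.11 and 0.25, with a mean of -0.14 ± 0.49 (SD, n = 5). Here replicates 3 and 5 were high and replicates 1 and 2 low, the same arrays that were high and low for the Hbb-b1 probe. As with alpha globin, the kaolin samples spanned more (0.93 log2 units) than the saline samples (0.32). Without replicate 2 the Alas2 mean was 0.01.

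For the globins of non-erythroid cells the mean difference was smaller than the spread between arrays. Ngb (chr6:111231264-111231323, minus strand) gave 0.33, -0.11, 0.46, -0.06 and -0.12, a mean of 0.10 ± 0.28 (SD, n = 5), with replicates 1 and 3 high. Without replicate 3 the Ngb mean was 0.0096, and without replicate 1 it was 0.040. Cygb (chr10:106759904-106759963, minus strand) gave -0.13, -0.01, 0.23, -0.15 and -0.07, a mean of -0.03 ± 0.15 (SD, n = 5), with replicate 3 alone above 0. With 1 array left out the Cygb mean ran from -0.089 (without replicate 3) to 0.0038 (without replicate 4). Mb (chr7:115087578-115087637, minus strand) gave 0.16, -0.01, 0.08, -0.03 and 0.01, a mean of 0.04 ± 0.08 (SD, n = 5), and 0.012 without replicate 1. With median centring in place of loess, all 3 had negative means (-0.08, -0.25 and -0.09).

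Across the 8 probes, 5 had a negative and 3 a positive mean, and 50.8% of all tested probes had a negative mean. The median over the 8 was -0.08, beside -0.0034 over all tested probes. By array the median over the 8 was -0.16, -0.71, 0.15, -0.13 and -0.03, so replicate 2 was the lowest and replicate 3 the highest. Alpha globin was the 1 probe of 8 below 0 on all 5 arrays, where 6.65% of tested probes were, and 0 of 8 were above 0 on all 5 arrays, where 6.22% were. In the limma fit 0 of 8 passed an adjusted p of 0.05, and 0 of 29118 probes did (0%; smallest adjusted p = 0.243). At an unadjusted p under 0.05, alpha globin and Ahsp were lower, 2 of 8, beside 9.32% of all probes lower, and 0 of 8 were higher beside 8.82%. Since the genes were picked with these ratios known, nothing is read from these shares.

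The arrays did not run alike, which touches each mean given here. Over all tested probes, replicates 1 and 2 correlated at -0.37, and replicate 2 correlated at -0.17, -0.07 and -0.06 with replicates 3, 4 and 5; pairs without replicate 2 lay between 0.12 and 0.83. The labels give every array the same dyes, so the direction was kept. With the sign of replicate 2 turned, alpha globin stood at -0.72, Hbb-b1 at 0.06, Hbb at 0.77, Alas2 at 0.16, Ahsp at -0.08, Ngb at 0.14, Cygb at -0.02 and Mb at 0.04. Under that setting 3 of 8 means were negative in place of 5. Leaving replicate 2 out gave 1512 called probes of 29118, alpha globin among them at -1.15, and array weights gave 3477, alpha globin again among them. Leaving replicate 1 out took alpha globin to -0.91 and gave 1 called probe, which was not a globin member. Gfap, the astrocyte filament, gave 0.39, 0.60, 2.81, 2.32 and 2.95, so replicates 1 and 2 also stood apart there. Replicate 5 was on a slide of its own; on the slide of replicates 1 to 4 alone alpha globin stood at -1.25.

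Other red cell genes were followed from a list of 43 erythroid symbols, of which 30 were tested. The list's means were negative for 21 and positive for 9, with a median of -0.04, and 0 of 30 passed the adjusted threshold, beside 0% of all probes. At an unadjusted p under 0.05 in limma, 8 of 30 were lower and 0 higher, beside 9.32% and 8.82% of all probes. Rhag, among these 8 and named after its values were seen, passed the filter through its saline samples alone. Its array medians were -0.13, -0.07, 0.07, -0.09 and -0.06, so replicate 3 was again the highest. Hemgn, an erythroid nuclear protein, gave -0.66, -0.27, 0.06, -0.50 and -0.35, with a mean of -0.34 ± 0.27 (SD, n = 5). Among the positive means stood Klf1, the erythroid Krüppel-like factor known for binding CACCC boxes, with 0.46, -0.34, 0.71, 0.39 and 0.31. Its single negative array was replicate 2, as for Hbb. Epb42, a protein of the red cell membrane skeleton, had a mean of 0.14 ± 0.64 (SD, n = 5). Hemgn had a negative mean and Klf1 and Epb42 positive ones, so erythroid genes did not share 1 direction. Summed over the 30 genes, the normalized signal ran from 65813 to 76057 in kaolin and from 66535 to 74677 in saline. Bnip3l, a mitophagy receptor that is not restricted to red cells, took 33.6% to 39.3% of it, and without it the sum ran from 42500 to 47386 and from 42637 to 47577.

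Probes of embryonic and minor globins were also on the array. The Hbe2 probe (chr1:161648724-161648783, rn4) gave -0.29, -0.64, 0.09, -0.38 and -0.09, lowest on replicate 2 and highest on replicates 3 and 5, as the Hbb-b1 probe was. Hbg1 stayed between -0.06 and 0.09. The Hbq1 probes had means of -0.03 and -0.10. A zeta-globin probe and 1 of the 2 Hbe1 probes were well above background in no sample and were not tested, and a probe for a beta-globin major sequence (chr1:161619088-161619147) was so in 1 kaolin and 0 saline samples.

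Genes of heme synthesis other than Alas2, and of heme breakdown, had more positive than negative means. All 8 heme synthesis genes looked for were tested, and 6 had positive means. Urod and Uros, enzymes of the middle of the pathway, stood at 0.26 ± 0.29 and 0.26 ± 0.25 (SD, n = 5). Cpox, a late mitochondrial step, stood at -0.27 ± 0.24 and Alas1, the housekeeping counterpart of Alas2, at -0.16 ± 0.26 (SD, n = 5). The median of the list was 0.16, and with median centring it was -0.04. Of 10 tested genes for heme and hemoglobin clearance, 7 had positive means and the median was 0.25. Hmox1, which breaks down heme, gave 0.03, 0.06, 2.54, 1.79 and 2.57. Fth1, the ferritin heavy chain that stores iron, stood at -0.02, -0.0038, 0.90, 0.64 and 1.76. Both were high on replicates 3, 4 and 5, whereas the lowest alpha-globin ratio fell on replicate 1. Of the 18 genes, 0 passed the adjusted threshold, 5 were higher and 1 lower at an unadjusted p under 0.05 in limma. Over all probes 0% passed the adjusted threshold, and 8.82% were higher and 9.32% lower unadjusted.

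**Figure D4:**
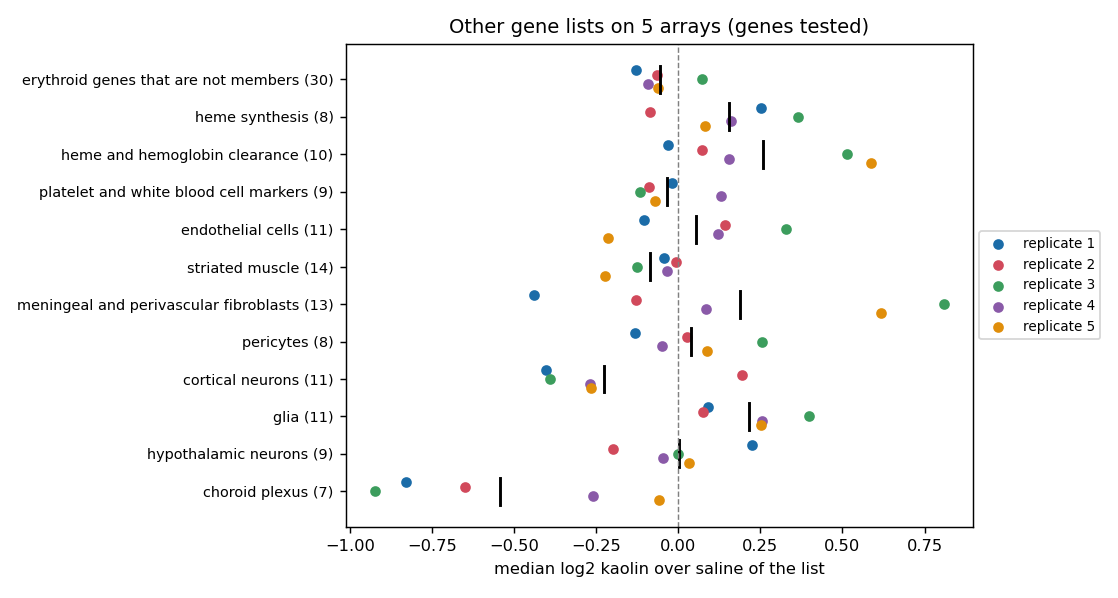
Median log2 kaolin over saline (horizontal axis) of each gene list on each array, 1 coloured point per array with a bar at the mean of the 5; the number of tested genes follows each name. The medians of erythroid genes that are not members sit near 0 (-0.13 to 0.07), while the median of the choroid plexus list lies below 0 on all 5 arrays.

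Markers of other cell types that could carry these RNAs were read on the same arrays. Platelet and white blood cell markers, which travel with red cells in blood, had 4 positive and 5 negative means over 9 tested of 18 listed genes, with a median of -0.03. Gp9, a platelet membrane glycoprotein, was below 0 on all 5 arrays with a mean of -0.26 ± 0.16, and Pf4, a platelet chemokine, stood at -0.28, -0.72, 2.0, 1.21 and 1.78. Their summed signal ran from 20056 to 32012 in kaolin and from 22141 to 32060 in saline, but the probe of Gp1bb alone made up 90.0% to 96.0% of it. Without that gene, named like Bnip3l after its values were seen, the sum ran from 1293 to 2110 in kaolin and from 1283 to 1574 in saline. The genes left had mean log2 signals from 6.43 (Cd3g) to 8.80 (Treml1), with Pf4 next to the top at 8.74. Whether this sum follows blood content was not tested. Endothelial markers had a median of 0.04 over 11 genes, with 8 positive means, and ran from 25961 to 31734 in kaolin and from 24875 to 30453 in saline. Choroid plexus genes had negative means for 7 of 7, and their summed signal ran from 6934 to 10429 in kaolin and from 8801 to 65630 in saline, or from 5580 to 9095 and from 8045 to 13496 without Ttr. Clic6 of that list and Rhag of the erythroid list, named after their values were seen, were well above background in 0 kaolin and 3 saline samples. Both therefore passed the filter through saline alone, the group where they were higher. Otx2, well above background in 1 kaolin and 4 saline samples, also needed its saline samples to pass. Clic6 and Otx2 are counted in the 7 of 7 negative means, so that count is partly shaped by the filter. Ttr, the choroid plexus thyroid hormone carrier, stood at -4.11, -1.89, -4.29, -3.85 and -0.12. On the array where Ttr was near 0, alpha globin was at -0.59, the nearest to 0 of its 5 ratios. The lowest Ttr ratio and the lowest alpha-globin ratio fell on different arrays. The part of blood content and of choroid plexus tissue in the alpha-globin ratio was not tested.

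For Mb, 14 of 20 striated muscle markers were tested, 10 with negative means, and their summed signal ran from 7820 to 12442 in kaolin and from 11971 to 13519 in saline. For Cygb, fibroblast markers had positive means for 12 of 13 genes, with array medians from -0.44 to 0.81, and pericyte markers for 6 of 8. Both lists were highest on replicate 3, as Cygb was. The erythroid, heme synthesis, endothelial and glial lists and the median over the 8 probes were also highest there. The likeness is therefore not particular to fibroblasts and pericytes. Their summed signals ran from 26862 to 66064 and from 14636 to 17691 in kaolin, and from 32095 to 42139 and from 14829 to 16182 in saline. For Ngb, cortical neuron markers had negative means for 10 of 11 genes, with a summed signal of 98281 to 157185 in kaolin and 118943 to 154473 in saline. Hypothalamic neuron markers had negative means for 5 of 9, with 3408 to 4321 in kaolin and 3727 to 4735 in saline. The part of these cells in the Mb, Cygb and Ngb values was not tested.

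The genes whose 5 ratios came closest to those of alpha globin were compared by the root mean square difference over the 5 arrays, among 12678 genes with an official symbol. The closest 6 were Cbarp at 0.56, Tubb5 and Tubb2b at 0.62, Ubb at 0.63, and Atp1b1 and F5 at 0.65, where the median gene was at 1.26. The first 5 of them had mean log2 signals from 16.25 to 16.98, and F5 had 6.86. Cbarp, for instance, gave -1.21, -0.10, -0.97, -0.92 and -0.85, less negative than alpha globin on 3 of 5 arrays.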

How the data were processed

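RNA of kaolin cortex (Cy3) and saline cortex (Cy5) was measured on 5 two-colour Agilent rat arrays. Per the file headers, Agilent Feature Extraction 10.1.1.1 wrote the deposited scanner files. They give raw intensity for each spot and its surroundings, a processed intensity that the software had already corrected for background and dye, and a ratio as log10 (Cy5 divided by Cy3), per the file headers. Deposited 0 or 1 flags, which are other values, mark spots above background, saturated spots and outliers. The authors' deposited series matrix holds log2 values that ran as Cy3 over Cy5 (correlation with each array's ratio 0.978 to 1.00, column medians from -0.10 to 0.09); normalization not given in the sources used here.

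Outlier spots (86 to 147 per array) were left out and no spot was saturated. Signals were corrected with normexp (offset 50), then normalized by loess within arrays with controls at weight 0. A probe was tested when well above background in either channel on at least 3 of 5 arrays. Ratios were fitted in limma 3.58.1 (R 4.3.3 with the data.table package, version 1.17.8) with 1 coefficient, the mean, tested two-sided against 0. Benjamini-Hochberg adjustment ran over all tested probes, with a threshold of 0.05; the fit was tested on simulated data. P-values weigh each mean against the spread between arrays, with each variance drawn toward those of all probes. They do not separate dye from kaolin. Signals per sample used loess and then Aquantile normalization. Samples were grouped by their titles. The number of arrays limits the precision.

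Symbols came from RefSeq: 10768 probes matched by accession, 286 by another listed accession, 6024 by symbol and 3339 by an older symbol, and 20595 kept the name in the file. A listed gene is its brightest tested probe. From each list the 2 highest and 2 lowest genes could be named, and 6 genes closest to alpha globin. A gene that this rule names is not reported here. The members and lists were chosen with earlier results of these data known. Promoters were aligned with Biopython 1.88 (Python 3.11.15).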

Additional observations from a re-analysis of the deposited data

Results flagged for a closer look

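In 36 groups of 5 values looked at, 2 had a sample far from the other 4, and chance gives about 1 such group in 20. The saline sample of replicate 2 had an Hbb log2 signal of 12.44, where the other saline samples lay between 11.38 and 11.67. The cortical neuron list had a median log2 ratio of 0.19 on replicate 2 and of -0.40 to -0.27 on the other arrays. Both are on replicate 2, the array that correlated negatively with the rest.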

How the results depend on the processing

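Over 18 other settings, 1 of them (the reference to probes of like signal) chosen after seeing the data, 142 of 144 member values moved by less than 1 SD. Alpha globin stayed negative throughout (-1.59 to -0.72), as did Ahsp (-0.56 to -0.08), and Hbb stayed positive (0.04 to 0.77). The sign of Hbb-b1 differed in 1 alternative, of Alas2 in 2, of Ngb and Mb in 1 each and of Cygb in 4. Median centring in place of loess moved the median of all probes to -0.10, Cygb to -0.25 and Mb to -0.089. It also moved the erythroid list to -0.19, heme synthesis to -0.043, muscle to -0.21, and pericytes and glia to -0.14 each. Under it 22 probes passed, 1 of them a member (alpha globin), and the unadjusted counts were 7464 lower and 1244 higher, against 2713 and 2567. List medians changed sign in 6 settings for platelet and white cell markers, 4 for hypothalamic neurons, 2 for pericytes and 1 each for endothelial cells, fibroblasts, glia and heme synthesis. Array weights gave 3477 calls with 1 member, and turning the sign of replicate 2 gave 486 calls and left 3 members with a negative mean. Leaving out 1 array gave 0 to 1512 calls over all probes, 0 to 1 members called and a glial median of 0.038 to 0.31. The highest count and the called member came without replicate 2. The cause was not tested. No replicate block could be added, because the array already pairs its samples. No member has a second tested probe, so averaging probes of a gene gave no value.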
